A study of Mus musculus with 6 samples.

Results

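The Sprouty genes (Spry1, Spry2, Spry3 and Spry4) and the Spred genes (Spred1, Spred2 and Spred3) encode intracellular inhibitors of receptor tyrosine kinase signalling to ERK. They were taken by gene symbol from the count tables, where all 7 symbols were found among 23420, and 6 of the 7 were expressed enough to be tested. Expression was measured by RNA-seq in lacrimal gland buds of mouse embryos at stage E14.5, isolated by laser capture, in 3 Control and 3 Pea3 TKO libraries on a mixed background. Control libraries are titled WT, and the authors give the control genotype of the RNA-seq as Le-Cre. The authors' methods state that both Le-Cre and Le-Cre;Pea3+/-;Ermflox/+;Er81flox/+ mice served as controls in the study. Whether any Control library came from mice with such heterozygous alleles is not given. Pea3 TKO embryos carried Le-cre together with Pea3-/-, Ermfl/fl and Er81fl/fl, so that Pea3 (Etv4) was null in every cell, whereas Erm (Etv5) and Er81 (Etv1) were deleted where Le-Cre is active, which is the ocular surface ectoderm including the conjunctiva and the lacrimal gland. How many embryos or glands went into a library is not given in the sources used here, so the p-values measure the spread between these libraries.

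Sprouty proteins are switched on by FGF and other receptor tyrosine kinases and act back on the same pathway, through binding partners such as the adaptor Grb2 and the ubiquitin ligase Cbl. Spred proteins share the cysteine-rich C-terminal domain of the Sproutys and carry in addition an EVH1 domain. They bring neurofibromin (Nf1), a GTPase-activating protein, to Ras at the membrane. In branching organs such as the kidney and lung, Sprouty genes are known for restraining the growth and branching of the epithelial bud, and Spry4 is a widely used read-out of FGF activity. The question here was which members of the family followed Spry4 when the Pea3 factors were removed and which did not.

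Library totals lay between 14194775 and 17860140 counts. Expression is given as CPM, the count relative to the library total after TMM scaling between libraries. Replicate libraries of a group differed by more than sampling noise, with a chi-square per degree of freedom of at least 15.5. All 3 targeted genes were lower in the Pea3 TKO libraries (log2 fold change -2.93 for Etv5, -2.95 for Etv4 and -1.74 for Etv1). The epithelial markers Epcam and Cdh1 were high in every library, at least 1200 CPM and at least 458 CPM. Epcam was not called, whereas Cdh1 was called higher in Pea3 TKO (log2 fold change 1.09, edgeR adjusted p = 4.15e-04). The endothelial gene Cdh5 and the leukocyte gene Ptprc were at most 0.0635 and 0.52 CPM. Other genes of these cell types reached more. Among them Pecam1 had up to 3.19 CPM (Control replicate 3), Kdr up to 2.38 (Pea3 TKO replicate 2) and Csf1r up to 11 (Control replicate 1). Summed markers of the surface epithelium were 1085 to 2270 CPM in Control and 6367 to 8617 in Pea3 TKO, and 12 of the 13 were called higher. Of the lacrimal epithelium markers 4 of 11 were called lower and 5 higher. Markers of mesenchyme summed to 330 to 404.8 CPM in Control and 362 to 970.1 in Pea3 TKO, with 2 of 14 called higher and Tcf21 at 0. Foxc1 (184 to 229 CPM) and Vim (84.7 to 90.4) made up most of the Control sums. Col3a1 had 2.99, 6.42 and 53.3 CPM in Control and 119.5, 213.3 and 1.997 in Pea3 TKO replicates 1 to 3. Dcn had 1.07, 0.249 and 4.42 against 69.7, 73.6 and 2.41. Pdgfrb did not show this, at 3.83, 3.49 and 3.84 against 1.65, 4.96 and 2.23. Markers of endothelium summed to 28.3 to 35.1 CPM in Control and 19.6 to 31.7 in Pea3 TKO, with Tie1, Emcn and Robo4 at 0. Blood and immune markers summed to 41 to 125.4 and 59.4 to 222.6 CPM, melanocyte and Schwann cell markers to 213 to 311.4 and 106.3 to 124.6, muscle and neuron markers to 2.08 to 5.30 and 0.254 to 4.82, and lens and retina markers to 135.6 to 822.4 and 140.2 to 269.9, the highest in Control replicate 2. The Y-linked genes summed to at least 135.7 CPM in the Control libraries and in Pea3 TKO replicate 3 (139 CPM) but to 0.444 and 0.210 CPM in Pea3 TKO replicates 1 and 2, so embryo sex differed between the groups in part.

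Spry4 fell most among the members. Its expression was 27.6, 53.2 and 54.0 CPM in Control replicates 1 to 3 and 5.08, 6.92 and 7.64 CPM in the Pea3 TKO replicates. Every Pea3 TKO library lay far below every Control library, and Control replicate 1 was well below the other Controls. The log2 fold change was -2.78 (standard error 0.3005, n = 3 each, adjusted p = 3.34e-04 by the edgeR quasi-likelihood test), a 6.86-fold lower level, and the 95% interval ran from -3.45 to -2.11.

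Spry1, the Sprouty best known for holding back the ureteric bud of the kidney, was the other member called. It had 282, 270 and 275 CPM in the Control libraries and 161, 156 and 143 CPM in the Pea3 TKO libraries. The groups were tight and well apart. The log2 fold change was -0.85 (standard error 0.106, n = 3 each, adjusted p = 6.54e-04), which left 55.6% of the Control level, and it stayed between -0.88 and -0.80 when each library was left out in turn.

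Spry2, a Sprouty that acts in many epithelia, had 21.1, 51.0 and 42.6 CPM in the Control libraries and 22.2, 26.5 and 26.6 CPM in the Pea3 TKO libraries. The groups overlapped, as Control replicate 1 lay below all 3 mutants while the other Control libraries lay above them. Its change was -0.61 on the log2 scale (standard error 0.287, 95% interval -1.25 to 0.036, adjusted p = 0.153), and the gene was not called. When Control replicate 1 was left out it was called at -0.90 (adjusted p = 0.00777), and when Control replicate 2 was left out the value was -0.34 (adjusted p = 0.481).

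Spry3 was listed at 0 counts in all 6 libraries, which allows a level of up to 0.169 to 0.210 CPM depending on the library (3 counts, counting error only). RefSeq assigns it to chromosome X, and GENCODE places it on an unplaced scaffold. Whether the annotation used by the authors covered that scaffold is not given in the sources used here, so this 0 was not read as an absence of expression.

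Of the Spred genes none was called at an adjusted p threshold of 0.05 by edgeR. Spred1, the Spred whose loss in humans causes a neurofibromatosis-like syndrome, had 153, 159 and 200.1 CPM in the Control libraries and 65.1, 125.1 and 126.5 CPM in the Pea3 TKO libraries. The groups did not overlap, and Pea3 TKO replicate 1 stood below the other mutants. The log2 fold change was -0.69 (standard error 0.233, 95% interval -1.21 to -0.17, adjusted p = 0.0542). This value lay at the threshold, and with DESeq2 in place of edgeR the adjusted p was 0.0129. It was also called when Control replicate 1 (adjusted p = 0.0491) or Pea3 TKO replicate 3 (adjusted p = 0.0457) was left out. Without Pea3 TKO replicate 1 the log2 fold change was -0.44 (adjusted p = 0.0714), and with Y-linked expression as a covariate it was -0.44 (adjusted p = 0.508).

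Spred2, the closest relative of Spred1, had 23.4, 22.9 and 23.5 CPM in the Control libraries and 18.2, 16.4 and 17.4 CPM in the Pea3 TKO libraries. The groups did not overlap and each was narrow. The log2 fold change was nevertheless small at -0.42 (standard error 0.187, 95% interval -0.84 to -0.00455), with an unadjusted p of 0.0480 and an adjusted p of 0.129 from edgeR. Spred3 was the rarest member that could be tested, with 43, 81 and 67 counts in the Control libraries and 27, 36 and 46 in the Pea3 TKO libraries. In CPM these were 2.42, 5.05 and 4.36 against 1.71, 2.52 and 2.70, and the groups overlapped. Its log2 fold change of -0.77 had a 95% interval from -1.93 to 0.40 (adjusted p = 0.318), and this interval holds both 0 and the value of Spry1.

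**Figure D1:**
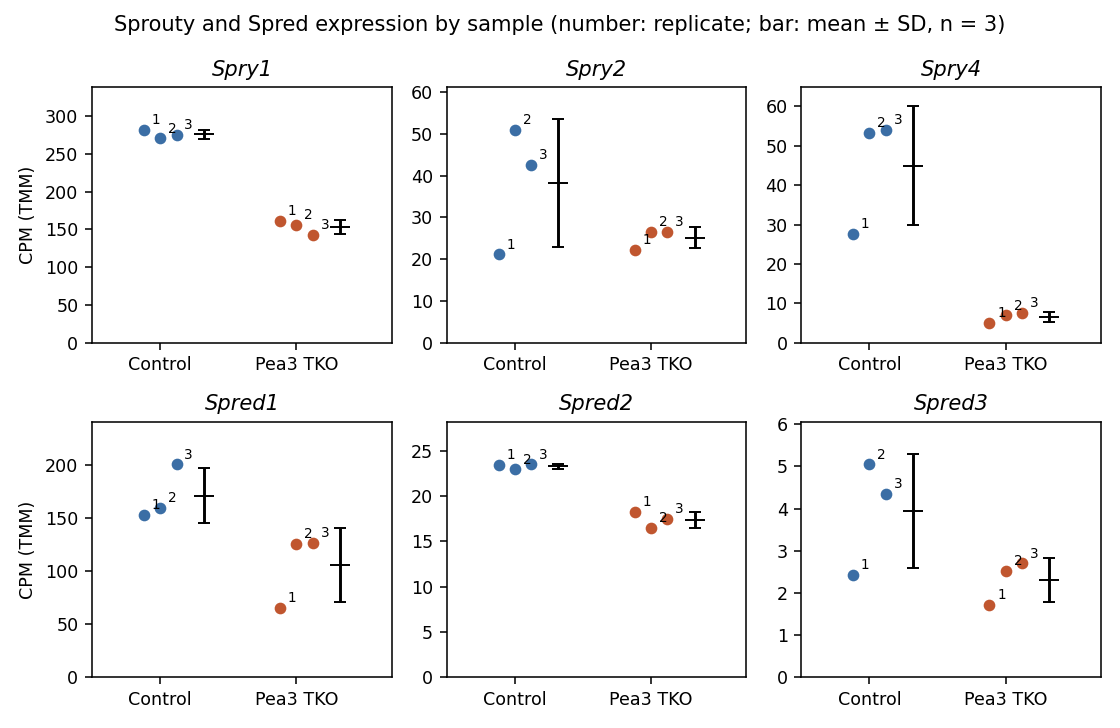
Expression of the 6 tested members in CPM after TMM scaling (vertical axes, each from 0) in the 3 Control and 3 Pea3 TKO libraries. Points are libraries numbered by replicate, and black marks are the mean ± SD. The groups are separate for Spry1, Spry4, Spred1 and Spred2 and overlap for Spry2 and Spred3, where Control replicate 1 lies low.

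In total 2 of the 6 tested members (33.3%) were called lower, beside 11.3% of all 13087 tested genes. None was called higher by edgeR at an adjusted or an unadjusted p under 0.05, nor by DESeq2, beside 13.6% of all tested genes by edgeR. All 3 Pea3 TKO libraries lay below all 3 Control libraries for 4 of the 6, beside 21.3% of all tested genes. All 6 log2 fold changes were negative, with a median of -0.73, while the median over all tested genes was 0.00936. In the order of all genes from the lowest log2 fold change, Spry4 was number 128, Spry1 number 950, Spred3 number 1086, Spred1 number 1260, Spry2 number 1558 and Spred2 number 2538. In bulk tissue of this kind fewer cells that express a gene and less RNA per cell cannot be told apart. Surface epithelium markers moved with the groups as given above, and summed mesenchyme markers were highest in Pea3 TKO replicates 1 and 2. The part of either in these values was not tested.

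**Figure D2:**
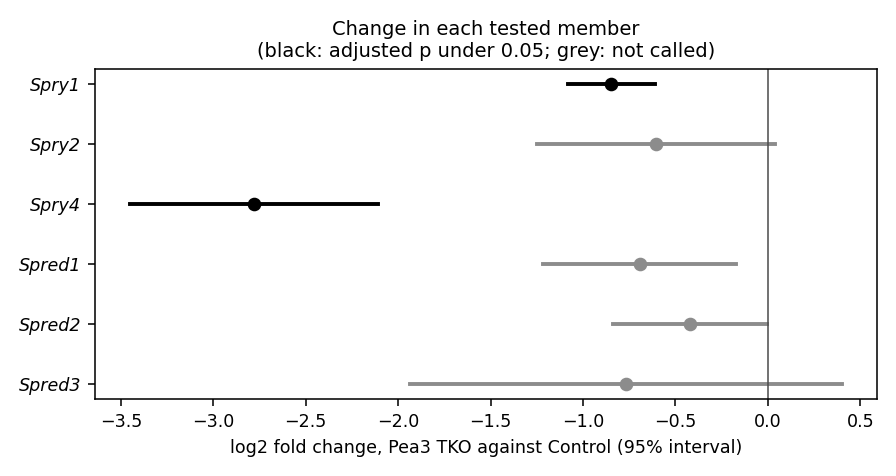
Log2 fold change of Pea3 TKO against Control for each tested member with its 95% interval from the edgeR fit. Spry4 at -2.78 and Spry1 at -0.85 are drawn in black as called, and the 4 members in grey have intervals that reach to near or across 0.

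A gene that passes a threshold beside others that do not is not by this shown to differ from them, so each member was also set against Spry4 within the same library. Such a ratio does not depend on the scaling of the library. The log2 ratio of Spry1 to Spry4 was 3.34, 2.34 and 2.34 in the Control libraries and 4.96, 4.47 and 4.21 in the Pea3 TKO libraries. That of Spry2 to Spry4 was -0.38, -0.062 and -0.34 in Control, where counts of these genes ran side by side, and 2.10, 1.92 and 1.78 in Pea3 TKO. That of Spred1 was 2.47, 1.58 and 1.89 against 3.65, 4.15 and 4.03. For each of the 5 members all Pea3 TKO ratios lay above all Control ratios, and the same held for 95% of all other tested genes, so this does not set the members apart. Each exact permutation test gave p = 0.10 (two-sided, n = 3 each), the smallest p that 3 against 3 libraries allow.

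The mutant minus Control differences of the log2 ratio were 1.87 for Spry1, 1.97 for Spred1, 2.01 for Spred3, 2.20 for Spry2 and 2.29 for Spred2. With limma fitted across all genes their adjusted p was at most 0.00578. That fit shares the deviations of Spry4 itself over all genes, which makes its p-values too small, and it called 96.3% of all genes as falling less than Spry4. An interval that combines the edgeR errors of both genes, chosen after the data were seen, ran from 1.22 to 2.64 for Spry1, from 1.24 to 3.10 for Spry2 and from 1.23 to 2.93 for Spred1. It ran from 1.57 to 3.15 for Spred2 and from 0.665 to 3.36 for Spred3. By the same method 95.9% of all genes were called as falling less than Spry4, so the 5 members were like most genes in this. The intervals of the 5 members overlapped, and differences among them were not tested.

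**Figure D3:**
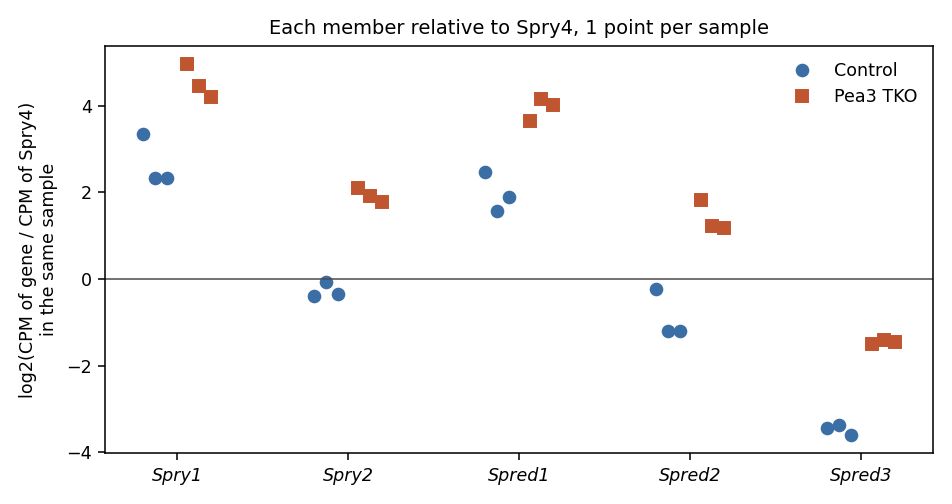
Log2 ratio of the CPM of each member to the CPM of Spry4 in the same library (vertical axis), 1 point per library. For each of the 5 members the 3 Pea3 TKO squares lie above the 3 Control circles, and for Spry2 the ratio passes from near 0 in Control to between 1.78 and 2.10 in Pea3 TKO.

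Spry2 and Spry4 also moved together within the Control group. Control replicate 1 had 51.5% of the mean of the other Control libraries for Spry4, 45.2% for Spry2 and 51.6% for Spred3, and 5.34%, 4.23% and 5.35% of tested genes had a ratio that low or lower in that library. In the same library Spry1 stood at 103%, Spred2 at 101% and Spred1 at 85.2%, and the targeted gene Etv5 and the ERK phosphatase gene Dusp6 at 86.9% and 91.3%. Its summed surface epithelium markers were 2270 CPM against 1146 and 1085 in the other Control libraries, and their part in the lower Spry2 and Spry4 was not tested. With this library left out, Spry4 had a log2 fold change of -3.03.

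Within the Pea3 TKO group the library that stood apart was another, and so was the gene. Pea3 TKO replicate 1 had 51.8% of the mean of the other mutants for Spred1, a ratio reached or undercut by 4.44% of tested genes. It had 53.6% for Etv5, 45.7% for Etv4, 69.8% for Spry4 and 65.7% for Spred3, but 108% for Spry1 and Spred2. Pea3 TKO replicate 3 had the most Etv4 (190% of the mean of the others) and Dusp6 (164%), and for Spry4 it had 127%.

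Levels of different members were compared as CPM per kb of annotated exon. In Control, Spry1 was by far the highest member, at 94.8 ± 1.95 CPM per kb (SD, n = 3). Spred1 came next at 25.2 ± 3.78, followed by Spry2 at 18.3 ± 7.37, Spry4 at 9.46 ± 3.16, Spred2 at 5.04 ± 0.0633 and Spred3 at 0.634 ± 0.219. The ranges of Spred1 and Spry2 overlapped, and so did those of Spry2 and Spry4, although Spry2 was above Spry4 in each Control library. In Pea3 TKO the levels per kb were 52.8 ± 3.21 for Spry1, 15.6 ± 5.17 for Spred1 and 12.03 ± 1.2 for Spry2, the last 2 overlapping. Spred2 at 3.76 ± 0.195 now stood above Spry4 at 1.38 ± 0.277, without overlap, and Spred3 was last at 0.372 ± 0.0844.

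Summed over the Sprouty genes the level per kb was 113, 129 and 126 in the Control libraries and 67.2, 67.7 and 63.6 in the Pea3 TKO libraries, and the groups did not overlap. Spry1 supplied most of it in every library, 77.7% ± 7.21 in Control and 79.7% ± 2.62 in Pea3 TKO (SD, n = 3). The share of Spry4 went from 7.61% ± 2.14 to 2.09% ± 0.471 without overlap, and that of Spry2 was 14.7% ± 5.16 and 18.2% ± 2.15 with overlap. The fall of Spry1 in CPM per kb, from 94.8 to 52.8, was thus larger than the whole Control level of Spry4, while its fold change was the smaller. The Spred sum was 28.0, 29.2 and 35.3 CPM per kb in Control and 13.8, 22.4 and 22.9 in Pea3 TKO. Spred1 made up 81.5% ± 1.87 of it in Control and 77.8% ± 7.22 in Pea3 TKO.

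**Figure D4:**
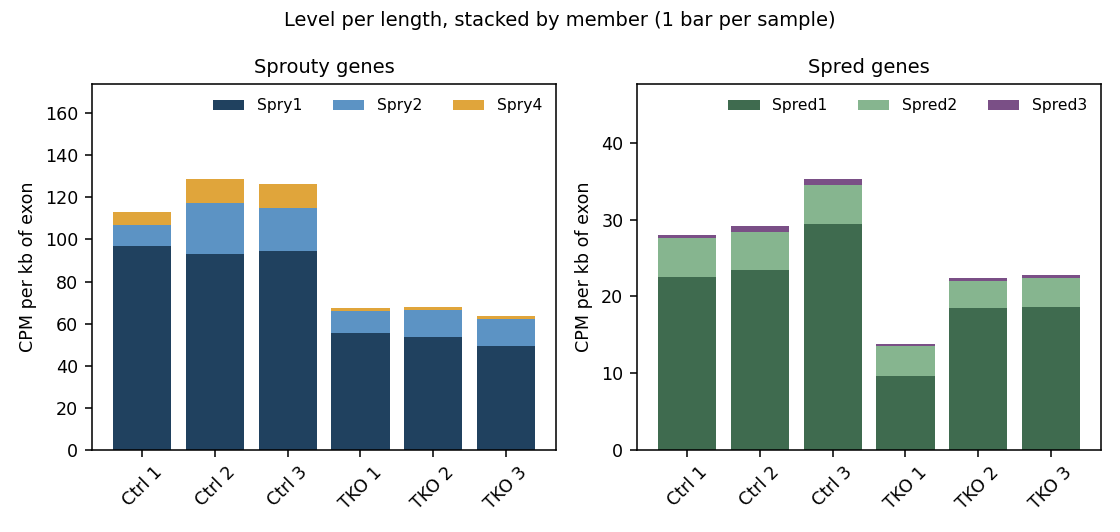
CPM per kb of exon in each library (1 bar per library), stacked by member for the Sprouty genes (left) and the Spred genes (right), with both axes starting at 0. Spry1 and Spred1 make up most of every bar, the Spry4 segment shrinks from 7.61% to 2.09% of the Sprouty sum, and Pea3 TKO replicate 1 has the lowest Spred bar at 13.8.

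The members lie apart in the genome. In GENCODE M21 on GRCm38, Spry4 (ENSMUSG00000024427.7) lies on chromosome 18 from 38586247 to 38601415 on the minus strand, with 4755 exonic bases. Spred2 lies on chromosome 11 from 19924375 to 20024026 on the plus strand with 4619 exonic bases, and Spred3 on chromosome 7 from 29158829 to 29170411 on the minus strand with 6218. The exons of Spred3 overlap those of Ggn on the opposite strand by 202 bases. Whether the counting used strand is not given in the sources used here, so reads from that stretch cannot be assigned for certain.

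Sequence is shown for Spry1, the second member called, for Spry2, the tested Sprouty that was not called, and for Spred1, the member at the threshold. Spry1 lies on chromosome 3 from 37639947 to 37644598 on the plus strand with 2906 exonic bases, of which 710 are shared with an antisense transcript, Gm42922, that has no row in the tables. The shared stretch is 24.4% of the exonic length of Spry1, and reads from it likewise cannot be assigned for certain. The part of such reads in the level and change of Spry1 was not tested. Spry2 lies on chromosome 14 from 105891947 to 105896819 on the minus strand with 2087 exonic bases. Spred1 lies on chromosome 2 from 117121374 to 117182279 on the plus strand with 6784 exonic bases, and its RefSeq start lies upstream of the GENCODE gene.

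The 250 bases before the RefSeq start of these genes (GRCm38.p6) are shown 5′ to 3′ on the strand of the gene, since the Pea3 factors are ETS proteins and bind sequences with a GGAA core. Capitals mark matches on either strand to the ETS-type words CCGGAA and CAGGAA, both of which contain GGAA.
Spry1 at chr3:37639697-37639946: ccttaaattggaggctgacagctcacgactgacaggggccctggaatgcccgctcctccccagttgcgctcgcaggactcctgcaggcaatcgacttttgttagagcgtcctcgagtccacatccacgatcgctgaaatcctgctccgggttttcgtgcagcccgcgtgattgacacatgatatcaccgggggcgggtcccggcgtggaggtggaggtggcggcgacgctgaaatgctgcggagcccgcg
Spry2 at chr14:105896820-105897069: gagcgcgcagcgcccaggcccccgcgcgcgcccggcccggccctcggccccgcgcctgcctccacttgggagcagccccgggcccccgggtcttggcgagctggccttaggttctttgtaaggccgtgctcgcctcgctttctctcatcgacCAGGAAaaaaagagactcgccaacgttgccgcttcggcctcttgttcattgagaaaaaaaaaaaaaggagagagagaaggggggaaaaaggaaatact
Spred1 at chr2:117120821-117121070: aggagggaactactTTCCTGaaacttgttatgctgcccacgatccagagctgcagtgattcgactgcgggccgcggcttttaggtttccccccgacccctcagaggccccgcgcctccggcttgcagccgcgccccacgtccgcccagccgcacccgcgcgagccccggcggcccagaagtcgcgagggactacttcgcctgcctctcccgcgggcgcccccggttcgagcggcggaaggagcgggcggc

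CCGGAA was found in 12% and CAGGAA in 25.7% of 32851 RefSeq promoter windows of this length, and GGAA alone in 93.4%. The promoter table used here held windows for 5 members (Spry1, Spry2, Spred1, Spred2 and Spred3), and those of Spry3 and Spry4 were not analysed here. No CCGGAA was found in any of the 5 windows. CAGGAA had 1 match in Spry2 and 1 in Spred1, the latter on the opposite strand, and none in Spry1, Spred2 or Spred3. GGAA had 1 match in Spry1, 3 in Spry2, 4 in Spred1, 7 in Spred2 and 1 in Spred3, beside a median of 3 over all windows. Without a window for Spry4, the member that fell most, these counts cannot be set against the changes of the family. These are matches of letters in a short window, and nothing on binding was measured here.

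The tested genes most like Spry4 over the 6 libraries, by Pearson r of log2 CPM, were Lamc1, a laminin chain gene (r = 0.9992), Slc38a2, an amino acid transporter gene (r = 0.998), Crispld2 (r = 0.998), Gm10432 (r = 0.997) and Jam3, a junctional adhesion molecule gene (r = 0.997). These r describe 6 libraries that fall into the 2 groups and share library and depth, and are given as a description. Lamc1 had 334, 445 and 464 CPM in Control and 161, 176 and 185 in Pea3 TKO. It was thus low in Control replicate 1 as Spry4 was, with a smaller change between groups (-1.25 on the log2 scale, SE 0.143, adjusted p = 4.50e-04 by edgeR). Among 13086 genes in this order Spry1 was number 629 (r = 0.937), Spred2 number 775 (r = 0.925), Spred3 number 1730 (r = 0.851), Spred1 number 2014 (r = 0.826) and Spry2 number 2859 (r = 0.730). No member was among the 5 genes most like Spry4.

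Taken as 1 list, other inhibitors and read-outs of FGF-ERK signalling went both ways. Of 25 tested genes of this list 7 were called lower and 7 higher, with a median log2 fold change of 0.00436. Each count is 28% of the list, beside 11.3% lower and 13.6% higher among all tested genes. Those lower were Dusp4, Dusp6, Dusp9, Il17rd, Flrt3, Spsb1 and Myc. Those higher were Egr1, Egr2, Fos, Junb, Ccnd1, Phlda3 and Lgals3. The other Dusp genes of the list, Dusp2, Dusp5 and Dusp7, were not called. Dusp6, which encodes a phosphatase that inactivates ERK, fell from 810 ± 45.7 to 197 ± 59.9 CPM (SD, n = 3, log2 fold change -2.04, edgeR adjusted p = 1.68e-04). The immediate early transcription factor genes Egr1 and Junb rose with log2 fold changes of 1.93 and 2.07 (standard errors 0.219 and 0.211, adjusted p = 4.37e-04 and 2.39e-04). Without Control replicate 2 or without Control replicate 3 the genes called lower in this list were 4.

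Of the cascade from receptor to ERK, 29 genes were tested, 3 were called lower and 4 higher, and the median log2 fold change was 0.055. These counts are 10.3% and 13.8% of the list, near the 11.3% and 13.6% of all tested genes. Fgfr1, an FGF receptor gene, fell from 191 ± 39.3 to 45.2 ± 5.19 CPM (SD, n = 3, log2 fold change -2.07, edgeR adjusted p = 7.31e-05). The receptor genes Fgfr2 and Fgfr3 were called higher, each with overlapping groups (log2 fold changes 0.54 and 2.45, edgeR adjusted p = 0.043 and 0.0332). Mapk3, which encodes ERK1, rose by 0.53 (adjusted p = 0.0105). The count of 4 higher was 1 when Control replicate 2, Control replicate 3 or Pea3 TKO replicate 2 was left out. Fgfr4 was too low to test.

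Among 26 tested genes for proteins that bind or modify Sprouty or Spred proteins, 3 were called lower and 4 higher, and the median log2 fold change was -0.088. These counts are 11.5% and 15.4% of the list, again near the shares among all tested genes. Apart from Fgfr1, which this list shares with the cascade, those lower were Siah2, a ubiquitin ligase gene whose product targets Sprouty proteins (log2 fold change -1.25, standard error 0.138, adjusted p = 3.87e-04), and Cav1, the caveolin gene (-1.53, standard error 0.266, adjusted p = 0.00340). Cbl had 39.9 ± 1.69 CPM in Control and 31.6 ± 7.71 in Pea3 TKO (SD, n = 3, edgeR adjusted p = 0.252). Nf1, the partner of Spred proteins, had 15.7 ± 3.16 and 12.4 ± 6.02 CPM (edgeR adjusted p = 0.566), and neither was called. The count of 4 higher fell to 0 when Control replicate 2, Pea3 TKO replicate 1 or Pea3 TKO replicate 2 was left out, and to 1 when Control replicate 3 was.

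**Figure D5:**
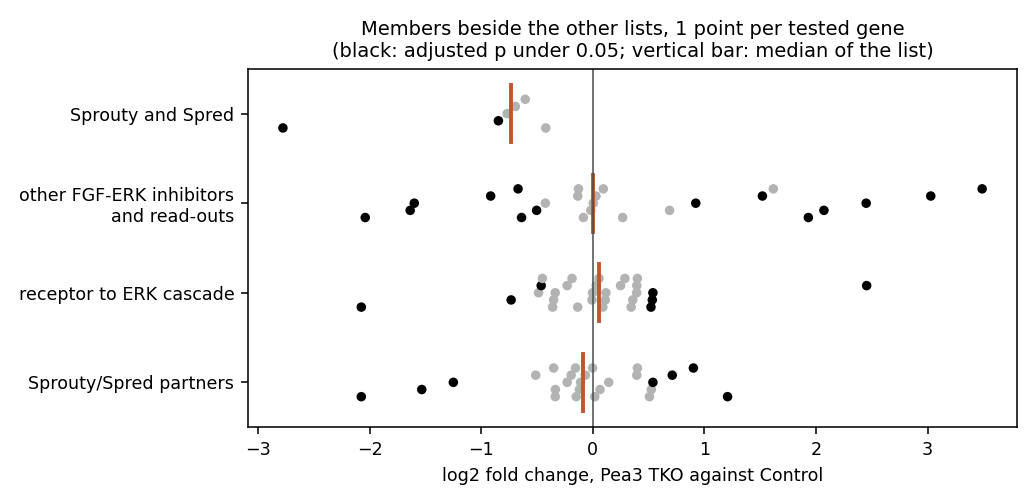
Log2 fold change of Pea3 TKO against Control for each tested gene of 4 lists (1 point per gene, black where the adjusted p was under 0.05), with the median of each list as a vertical bar. The 6 Sprouty and Spred genes all lie below 0 with a median of -0.73, while the other lists spread to both sides with medians of 0.00436, 0.055 and -0.088.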

How the data were processed

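The authors deposited raw counts of reads per gene symbol, 1 table per library, without normalization. The submitters' processing notes name the build mm10 and the tools bcl2fastq 2.17, STAR 2.5.2b, featureCounts 1.5.0-p3 and DESeq, without their roles. Genes were kept by the default filterByExpr of edgeR 4.0.16 (R 4.3.3), TMM gave the scaling, and the 2 groups were tested against each other with glmQLFit and glmQLFTest of edgeR (quasi-likelihood, genotype alone in the model). P-values were adjusted after Benjamini-Hochberg across the 13087 genes kept, and a gene was called at an adjusted p under 0.05. The standard error is the size of the change divided by the root of its F. Log2 ratios to Spry4 used log2 CPM with a prior count of 2 and limma 3.58.1. The edgeR fit was checked on simulated counts with known changes. The limma ratio fit was run on the same simulated counts without a pass condition, so this does not vouch for its p-values. Exonic lengths came from GENCODE M21 and promoter windows from RefSeq, by symbol.

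The members and gene lists were chosen with earlier results of these data known. The named genes are all members, the targeted genes, the 3 genes with the smallest p of each list with Cbl, Nf1 and Dusp6, the 5 genes most like Spry4, and the highest gene of each marker list. The last were Epcam for lacrimal epithelium, Krt15 for surface epithelium, Foxc1 for mesenchyme, Egfl7 for endothelium, Hbb-y for blood, Erbb3 for melanocytes and Schwann cells, Elavl4 for muscle and neurons, and Cryaa for lens and retina. A gene of the cascade list that this rule names is not reported here. Cdh1, Cdh5, Ptprc, Pecam1, Kdr, Csf1r, Col3a1, Dcn, Pdgfrb, Vim, Fgfr2 and Fgfr3 were named after their values were seen. So were the further genes named from the list of other inhibitors and read-outs. Alternatives covered DESeq2 1.42.0, other scaling, other filters, the replicate number as a block, a Y-linked covariate, other prior counts and leaving out each library.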

Additional observations from a re-analysis of the deposited data

How the results depend on the processing

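Spry1 and Spry4 kept their call and direction under all 13 alternatives each, between -0.95 and -0.80 and between -3.03 and -2.59 in log2 fold change. Spred2 and Spred3 were not called under any of theirs. Spred1 was called with DESeq2 (-0.694), with no low-count filter (-0.690), with the stricter filter of at least 1 CPM in every library of a group (-0.693) and with the replicate number as a block (-0.745), and it ranged from -0.847 to -0.441 when each library was left out, being called without Control replicate 1 and without Pea3 TKO replicate 3. Spry2 ranged from -0.899 to -0.344 over those fits and was called only without Control replicate 1. Members called lower ranged from 2 to 4 over them. Genes called lower over all genes ranged from 799 to 1417 and genes called higher from 1131 to 1948. Over the same fits, list members called ranged from 0 to 4 (partners, higher), 1 to 4 (cascade, higher) and 4 to 7 (other inhibitors and read-outs, lower).

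The differences from Spry4 kept their direction and their side of the threshold under other prior counts, the block and the combined edgeR errors. With the exact permutation test the same values (1.87 for Spry1, 2.20 for Spry2, 1.97 for Spred1, 2.29 for Spred2 and 2.01 for Spred3) had p = 0.10, which this design cannot go below. Same-numbered libraries correlated in their deviations from the group means at r = 0.13, -0.042 and -0.00092, so the numbers are not taken as pairs, and the block changed no other call of a member.

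Spred3 rests on 300 counts in all, and how much of its error is due to depth was not tested. Spry3 had none. Total-count scaling moved the median over all genes from 0.00936 to 0.040.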
